A study of Mus musculus with 4 samples.

Results

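The genes described here encode major urinary proteins and an odorant binding protein, namely Mup3, Mup4, Mup5, Mup10, Mup20, Mup21 and Obp2a. Each was measured at the probe sets that the array annotation assigns to its symbol. They were selected on the array signals themselves, for a stated fall of Obp2a and Mup10 in G9aKO liver. Their genotype differences are therefore given as a description, without a test. The annotation used here assigned 5 of the 45101 probe sets of the array to 4 of the 7 genes. Mup3 had 2 probe sets, and Mup5, Mup10 and Obp2a had 1 each. Mup4, Mup20 and Mup21 had no probe set in that annotation and are not analysed here, and 0 probe sets named several Mup genes. Of the 22 numbered Mup genes in RefSeq, 3 were thus represented. The stated fall holds for Obp2a and not for Mup10, whose signal was higher in G9aKO liver.

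The arrays, Affymetrix Mouse430_2, measured RNA from non-tumorous liver of 4 male mice, 2 WT and 2 G9aKO, with 1 array for each mouse. WT mice carried Alb-Cre and intact G9a (Alb-Cre; G9a+/+), and G9aKO mice carried Alb-Cre and 2 floxed alleles (Alb-Cre; G9aflox/flox), so that Cre under the albumin promoter deletes the gene in hepatocytes while other liver cells keep it. All mice were backcrossed to C57BL/6 and aged 30 weeks. Each had been given 25 mg/kg of the carcinogen DEN (diethylnitrosamine) at 15 days of age and then 22 weekly injections of 0.5 ml/kg of the hepatotoxin CCl4. The measurement is the MAS5 signal, an intensity on a linear scale that is scaled per array, with a call of Present, Marginal or Absent for each probe set.

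Major urinary proteins are small secreted lipocalins, barrel-shaped proteins that bind volatile odorants. In male mice they are among the most abundant transcripts of the liver, and the proteins pass through the kidney into urine, where they carry and release pheromones. Liver Mup expression depends on pulsatile growth hormone, acting through its receptor, JAK2 and STAT5, and on androgen, glucocorticoid and thyroid hormone. Mup20 encodes darcin, a male pheromone protein, and Mup4 is known from nasal and lachrymal glands. Obp2a, also listed as Lcn13, encodes another lipocalin of the liver. The Mup genes lie in a cluster on chromosome 4 and are related copies that differ in how alike they are, whereas Obp2a lies on chromosome 2.

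The RefSeq promoter windows of the 3 genes that the results turn on are shown for comparison. The genotype difference was downward for Obp2a and upward for Mup10. For Mup3 it lay within the spread of the arrays at the brighter of 2 probe sets. Each window holds 250 bases before to 50 bases after a transcript start on GRCm38.p6, read 5′ to 3′ on the gene's strand. Capitals mark the letters TATAA on either strand, the core of a TATA box. The windows are chr2:25699824-25700123 (plus strand) for Obp2a, chr4:60582106-60582405 (minus strand) for Mup10 and chr4:62087268-62087567 (minus strand) for Mup3. Mup5 is not in the table of windows.
Obp2a: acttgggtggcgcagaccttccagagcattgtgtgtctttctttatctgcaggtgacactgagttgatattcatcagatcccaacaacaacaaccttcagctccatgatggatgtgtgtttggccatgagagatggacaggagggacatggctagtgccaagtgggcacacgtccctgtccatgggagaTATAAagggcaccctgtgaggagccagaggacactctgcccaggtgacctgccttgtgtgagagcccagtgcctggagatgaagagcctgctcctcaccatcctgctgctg
Mup10: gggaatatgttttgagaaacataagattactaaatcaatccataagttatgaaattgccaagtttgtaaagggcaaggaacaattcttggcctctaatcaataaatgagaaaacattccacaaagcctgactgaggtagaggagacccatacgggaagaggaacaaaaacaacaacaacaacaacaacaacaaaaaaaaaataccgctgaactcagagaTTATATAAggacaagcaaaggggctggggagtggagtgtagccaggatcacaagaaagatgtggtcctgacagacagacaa
Mup3: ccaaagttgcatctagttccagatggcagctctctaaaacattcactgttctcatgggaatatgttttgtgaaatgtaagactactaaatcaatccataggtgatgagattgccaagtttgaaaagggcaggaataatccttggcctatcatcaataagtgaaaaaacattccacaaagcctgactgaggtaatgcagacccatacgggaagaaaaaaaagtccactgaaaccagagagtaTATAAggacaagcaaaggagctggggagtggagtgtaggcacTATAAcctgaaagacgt

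With gaps allowed, 218 of 300 bases (72.7%) were identical between the Mup10 and Mup3 windows. The letters that open the Mup10 window lie inside the Mup3 window, and bases without a counterpart count as not identical. The identities given here therefore also depend on where each transcript start is annotated. Identity of Obp2a with Mup10 was 54.3% and with Mup3 58.7%. Identity between unrelated windows was not computed, so these values are not read as shared sequence. Against the windows of 13 other Mup genes, Mup10 had a median identity of 86.7% (range 53.0% to 95%) and Mup3 one of 74.3% (62.7% to 92.3%). TATAA was present in each of the 3 windows, and in 24.9% of all 32851 windows of the same length. Its first base lay 61 bases before the transcript start in Obp2a. In Mup10 it lay 28 bases before the start, and an overlapping match on the other strand begins at -31. In Mup3 it lay 9 bases before the start, with a further match at base 34 counted from the start. The Mup10 match at -28 and the Mup3 match at -9 are followed by nearly the same letters. Their positions therefore also depend on where each start is annotated. The letters TTCNNNGAA (a STAT site, in 8.3% of all windows) and TTGCGCAA (C/EBP, 0.183%) and a palindromic HNF1 site (0.00913%) were searched on both strands. None had a match in the 3 windows.

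The groups were checked first at Ehmt2, which encodes G9a. Its detected probe set read 640 and 492 in WT liver (Present), against 174 and 164 in G9aKO liver (Absent) (adjusted p = 0.063, limma). Its other probe set was Absent on all 4 arrays. Whether either lies in the deleted exons was not determined, so this checks the labels only if the detected one does. The trimmed mean signal was 500.0 on each array, and 41.3% to 43.9% of probe sets were Present. The 95% quantile of Absent signals was 170 to 181. All 8 hepatocyte markers were Present, Alb and Apoa1 among them, and their summed signal was 469985 to 502037 in WT and 438816 to 492559 in G9aKO liver.

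Obp2a was lower in G9aKO liver. Its signal was 1494 and 677 in WT liver, against 80.8 and 190 in G9aKO liver. Both WT signals lay above both G9aKO signals, and the 2 arrays of a genotype differed by 2.21-fold in WT and 2.35-fold in G9aKO liver. The means were 1086 ± 578 in WT and 135 ± 76.9 in G9aKO liver (SD, n = 2 each), a log2 difference in signal of -3.02 (SE 0.52), or 8.13-fold on the scale of geometric means. Obp2a was called Present on 3 arrays and Absent on G9aKO replicate 1. The G9aKO signals lie near or below the 95% quantile of Absent signals, so the fold rests on a level close to background. The log2 difference was -2.41 without G9aKO replicate 1 and -2.45 without WT replicate 1. It was -3.59 without WT replicate 2 and -3.64 without G9aKO replicate 2. In whole liver, fewer cells that express a gene and less RNA per cell cannot be told apart.

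Mup10, a major urinary protein gene of the chromosome 4 cluster, was higher in G9aKO liver. Its signal was 1084 and 1260 in WT liver, against 4362 and 3581 in G9aKO liver, Present on all 4. The groups did not overlap, and the 2 arrays of a genotype lay within 1.22-fold of each other or closer. The means were 1172 ± 124 and 3972 ± 552 (SD, n = 2 each), 3.38-fold higher in G9aKO liver with a log2 difference in signal of 1.76 (SE 0.16). Each of the 4 pairs of a G9aKO with a WT array gave a log2 difference between 1.51 and 2.01. The log2 difference lay between 1.62 and 1.90 when any 1 array was left out.

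Mup5, which lies between Mup10 and Mup3 in the cluster, had signals of 1324 and 1361 in WT liver, against 1688 and 2117 in G9aKO liver. The G9aKO signals were the higher ones without overlap, but the difference was smaller than that of Mup10. The means were 1343 ± 26.3 and 1902 ± 303 (SD, n = 2 each), 1.41-fold apart with a log2 difference in signal of 0.49 (SE 0.16). The G9aKO arrays differed from each other by 0.33 on the log2 scale, and the genotype difference was 0.33 without G9aKO replicate 2.

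Mup3, another urinary protein gene, was measured by 2 probe sets whose suffix marks probes that may also bind related transcripts. At the brighter one the signal was 35761 and 34000 in WT liver, against 34354 and 32398 in G9aKO liver. The groups overlapped there, with means of 34880 ± 1245 and 33376 ± 1383 (SD, n = 2 each) and a log2 difference in signal of -0.06 (SE 0.09), which was 0.03 after quantile normalization. At the dimmer one the signal was 234 and 288 in WT liver, against 208 and 203 in G9aKO liver. These groups did not overlap, and the log2 difference in signal was -0.34, with WT arrays 0.30 apart. Both probe sets were Present on all 4 arrays. The 2 probe sets thus differed in whether the genotypes overlapped, and the brighter one represented Mup3 in the comparison over all genes.

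**Figure D1:**
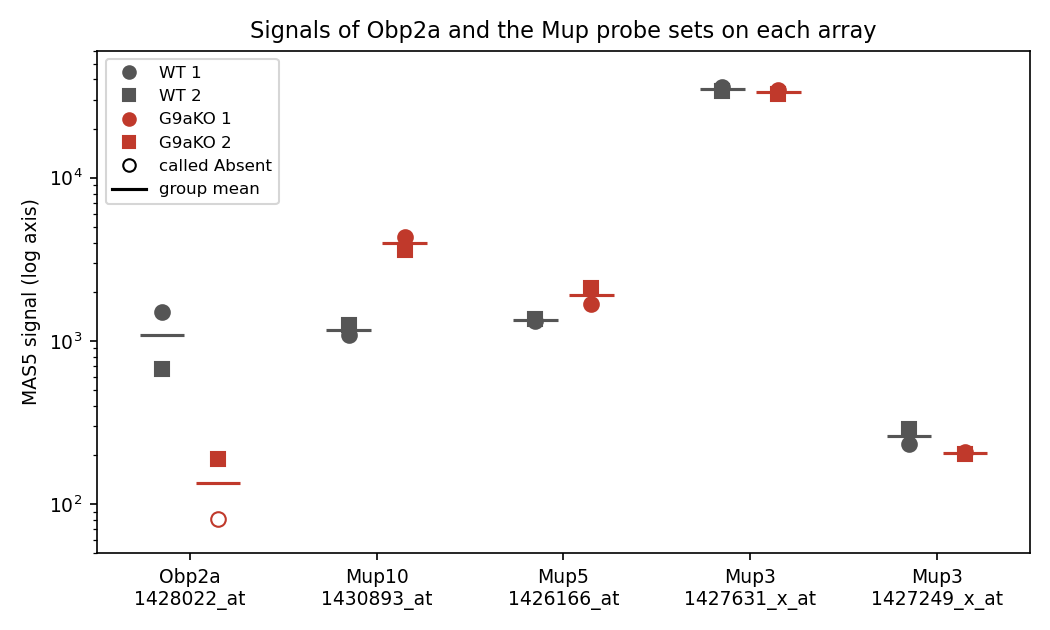
MAS5 signal on a log axis (vertical) at the probe sets of Obp2a, Mup10, Mup5 and Mup3 (horizontal), with 1 point for each array; circles are replicate 1, squares replicate 2, open points were called Absent and bars are arithmetic group means. The G9aKO arrays lie below the WT arrays for Obp2a (135 against 1086), above them for Mup10 (3972 against 1172) and Mup5, and among them at the brighter Mup3 probe set; levels of different probe sets are not comparable.

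Of the 4 genes, Mup10 and Mup5 were higher and Obp2a was lower without overlap between the genotypes. Mup3 overlapped at its brighter probe set. Over all 10350 genes tested, 41.6% did not overlap in either direction, 22.3% being higher and 19.3% lower in G9aKO liver. With 2 arrays a group, lack of overlap is therefore common. With limma and a Benjamini-Hochberg threshold of 0.05, 1 of the 4 genes was called higher, Mup10, where 0.319% of all genes were. By the same rule 0 were called lower, where 0.0676% of all genes were, and calls in either direction made up 0.386%. Before adjustment 2 of the 4 were higher and 1 lower, where 613 and 424 of all 10350 genes were. Since this contrast chose the genes, nothing is read from these counts. Mup10 was not called without WT replicate 1 or without WT replicate 2, and Obp2a was called lower when G9aKO replicate 2 was left out. Among the 10350 log2 differences, that of Obp2a was the one at rank 4 from the lowest and that of Mup10 the one at rank 88 from the highest. Those of Mup5 and Mup3 were at ranks 1102 and 6511 from the highest.

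Mup genes of 1 cluster thus gave log2 differences in signal of 1.76, 0.49 and -0.06, and their probe sets may bind transcripts of other Mup genes. How far they do was not tested, since probe sequences were not used here. No other tested gene lay between Mup10, Mup5 and Mup3. The 10 nearest tested genes outside them, 5 on each side, had log2 differences between -0.45 (Inip) and 0.24 (Hsdl2), and 0 were called. Around Obp2a the 10 nearest had log2 differences between -0.53 (Bmyc) and 0.24 (Rabl6), and 0 were called.

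The genes nearest to Obp2a and Mup10 in pattern were taken by the Euclidean distance between log2 signals of the 4 arrays, each centred on its gene's mean, over 10346 tested genes. For Obp2a these were Zic1, a zinc finger factor (distance 1.18), Clec2h, a C-type lectin (1.42), and Cyp2c37, a pericentral cytochrome P450 (1.45). Clec2h had signals of 511 and 452 in WT liver, against 63.3 and 44.2 in G9aKO liver. Cyp2c37 had signals of 14271 and 10380 in WT liver, against 1768 and 1090 in G9aKO liver. In both, as in Obp2a, the WT arrays were the higher ones, but G9aKO replicate 1 lay above G9aKO replicate 2, the reverse of Obp2a. Zic1 had signals of at most 47, below the 95% quantile of Absent signals, and was Absent on both G9aKO arrays.
For Mup10 the nearest genes were Gm31679 (0.24), Ccnd1, which encodes cyclin D1 (0.27), and Lipo3, a lipase family member (0.28). Ccnd1 had signals of 477 and 502 in WT liver, against 1525 and 1270 in G9aKO liver. Lipo3 had signals of 251 and 289 in WT liver, against 826 and 678 in G9aKO liver. Gm31679 was Absent on both WT arrays, with signals of 26.1 to 91 over the 4 arrays. As for Mup10, the lower WT signal of each was on replicate 1 and the higher G9aKO signal on replicate 1. A likeness over 4 arrays is a description only.

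The upstream pathway of the Mup genes was examined with a list of 22 genes of the growth hormone axis and regulators of Mup expression, of which 19 were tested. Of these, 0 were called higher and 0 lower by limma. Before adjustment 1 was higher and 0 were lower, where 613 and 424 of all 10350 genes were. The median log2 difference of the 19 was 0.01 against 0.02 for all genes, or -0.14 without WT replicate 2. Ghr, the growth hormone receptor, had signals of 19984 and 17371 in WT liver, against 17675 and 18609 in G9aKO liver, which overlapped. The log2 differences of Jak2, the kinase bound to that receptor, and Stat5b, its main transcription factor in male liver, were 0.05 (SE 0.15) and -0.06 (SE 0.20). Zhx2, a repressor of several liver genes and a known regulator of Mup expression, had one of -0.09 (SE 0.21). The 3 genes with the smallest p were Socs3, a feedback inhibitor of cytokine signalling (log2 difference 0.79, adjusted p = 0.491, limma), Igf1, the growth factor induced by growth hormone (-0.30, adjusted p = 0.505), and Rxra, a nuclear receptor partner (-0.27, adjusted p = 0.562). Socs2, a STAT5 target, had the lowest log2 difference of the list, -1.21 (SE 0.63). Its signal was 3353 and 913 in WT liver, against 1088 and 528 in G9aKO liver, so that the genotypes overlapped. Of the 19, 4 were lower and 2 higher in G9aKO liver without overlap, where 19.3% and 22.3% of all genes were. The lower ones were Igf1, Rxra, Igfals (log2 difference -0.50, SE 0.26) and Thrb (-0.97, SE 0.50). The higher ones were Socs3 and Jak2. Thrb had signals of 130 and 123 in WT liver, against 42.9 and 97.3 in G9aKO liver, and was Absent on G9aKO replicate 1.

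Other genes with sex-dependent expression in liver were set beside the Mup genes, which are male-biased. Of 23 male-biased genes, 21 were tested and 0 were called higher or lower by limma. Before adjustment 2 were higher and 4 lower, where 613 and 424 of all 10350 genes were. The median log2 difference of the 21 was -0.15, with 9 above and 12 below 0, and it was 0.38 without WT replicate 1. The 3 with the smallest p went both ways. Serpina12, the adipokine vaspin, had a log2 difference of 1.51, Ugt2b38, a glucuronosyltransferase, one of 1.56 and Keg1, a glycine N-acyltransferase-like gene, one of -1.34 (adjusted p = 0.117, 0.23 and 0.205, limma). Some male-biased genes differed more within a genotype than between genotypes. Elovl3, a fatty acid elongase, had signals of 15753 and 6864 in WT liver, against 14454 and 6083 in G9aKO liver. Hsd3b5, a hydroxysteroid dehydrogenase of male liver, had 1988 and 221 in WT and 1439 and 479 in G9aKO liver. The genotypes overlapped for both.
Of 25 female-biased genes, 12 were tested, 2 were called higher and 0 lower by limma, where 0.319% and 0.0676% of all genes were. Before adjustment 4 were higher and 0 lower, where 613 and 424 of all 10350 genes were. The median log2 difference was 0.22 against 0.02 for all genes, with 9 above and 3 below 0. This median was 0.48 without WT replicate 2 and 0.58 without G9aKO replicate 2. Cyp17a1, an enzyme of steroid synthesis, rose from 259 ± 75.1 to 1836 ± 189 (SD, n = 2 each), with a log2 difference of 2.85 and an adjusted p of 0.0262 from limma. Abcd2, a peroxisomal fatty acid transporter, rose from 143 ± 33 to 679 ± 130 (SD, n = 2 each), with a log2 difference of 2.26 and an adjusted p of 0.0435. The WT signals of Abcd2, 119 and 166, lay below the 95% quantile of Absent signals, and Cyp17a1 was Absent on WT replicate 1, so both differences rest on levels close to background. Abcd2 was not called when any 1 array was left out, and Cyp17a1 was not called without WT replicate 1. These lists were written with earlier results on the same arrays known.

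Among 17 other lipocalin genes, the wider family of the urinary proteins, 8 were tested and 0 were called by limma. Before adjustment 1 was higher and 0 were lower, where 613 and 424 of all 10350 genes were. The median log2 difference of the 8 was -0.10, or 0.29 without WT replicate 1. Apom, a lipocalin of lipoprotein particles, had a log2 difference of 0.40 (adjusted p = 0.448, limma) and C8g, a complement subunit, one of -0.24 (adjusted p = 0.574). Lcn2, a lipocalin of inflamed liver, had signals of 8160 and 1872 in WT liver, against 8203 and 6655 in G9aKO liver (log2 difference 0.92, adjusted p = 0.68), which overlapped. Rbp4, the retinol carrier made by hepatocytes, had a log2 difference of -0.10 (SE 0.09). The log2 differences of the list lay between -0.24 and 0.92.

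**Figure D2:**
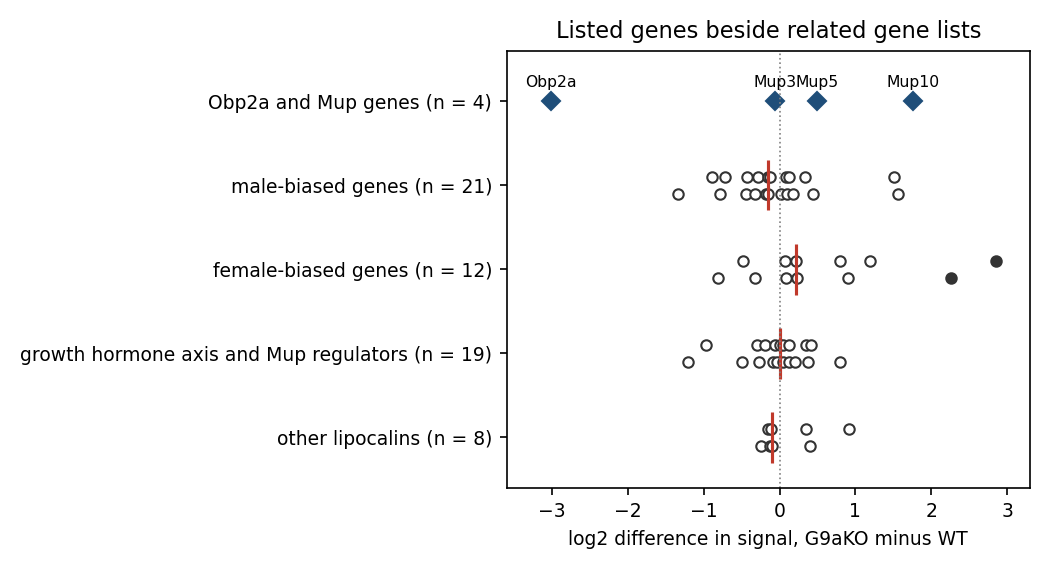
Log2 difference in signal, G9aKO minus WT (horizontal), of Obp2a and the Mup genes (diamonds) and of each tested gene (circles) of the 4 lists; filled circles passed the limma threshold of 0.05 and red bars are list medians. Obp2a lies at -3.02 and Mup10 at 1.76, the list medians lie between -0.15 and 0.22, and the filled points are Abcd2 and Cyp17a1.

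Markers of the cell types that liver holds and of liver tumour were examined beside these genes. Of 34 such markers tested, hepatocyte markers included, 0 were called higher and 0 lower by limma. Before adjustment 3 were higher and 2 lower, where 613 and 424 of all 10350 genes were. Of 7 markers of stellate cells and fibroblasts, 6 were higher in G9aKO liver without overlap, as were 22.3% of all genes, and 1 of the 6, Des, was Absent on all 4 arrays. Their summed signal was 2191 to 2307 in WT and 2729 to 5870 in G9aKO liver. Of 7 macrophage markers, 2 were higher without overlap, with summed signals of 16198 to 26529 and 25998 to 41735. Summed signals of 4 cholangiocyte markers were 381 to 407 and 599 to 728. The 2 that did not overlap, Krt7 and Epcam, were Present on 1 array each, and Sox9, Present on all 4, overlapped. For 5 endothelial markers the sums were 4163 to 4233 and 3305 to 4159, but single markers went both ways. Of the 5, 2 were higher (Pecam1 and Cdh5) and 1 lower (Lyve1) without overlap, where 22.3% and 19.3% of all genes were. Pecam1 was Present on 1 array. For 5 T cell markers the sums were 360 to 516 and 272 to 451. Cd3e and Cd4 were Absent on all arrays, and only 1 of the 5 was Present on 2 or more. For 3 B cell markers the sums were 263 to 370 and 215 to 309 (Cd79a Absent on all). For 3 neutrophil markers they were 657 to 1124 and 330 to 2403 (Mpo Absent on all). Of 3 liver tumour markers, Afp, the fetal albumin relative, had signals of 252 and 116 in WT liver, against 3058 and 1159 in G9aKO liver, which did not overlap, and Gpc3 and Golm1 overlapped. The part of these cells in the differences of Obp2a and Mup10 was not tested. The sum of the hepatocyte markers overlapped between the genotypes.

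**Figure D3:**
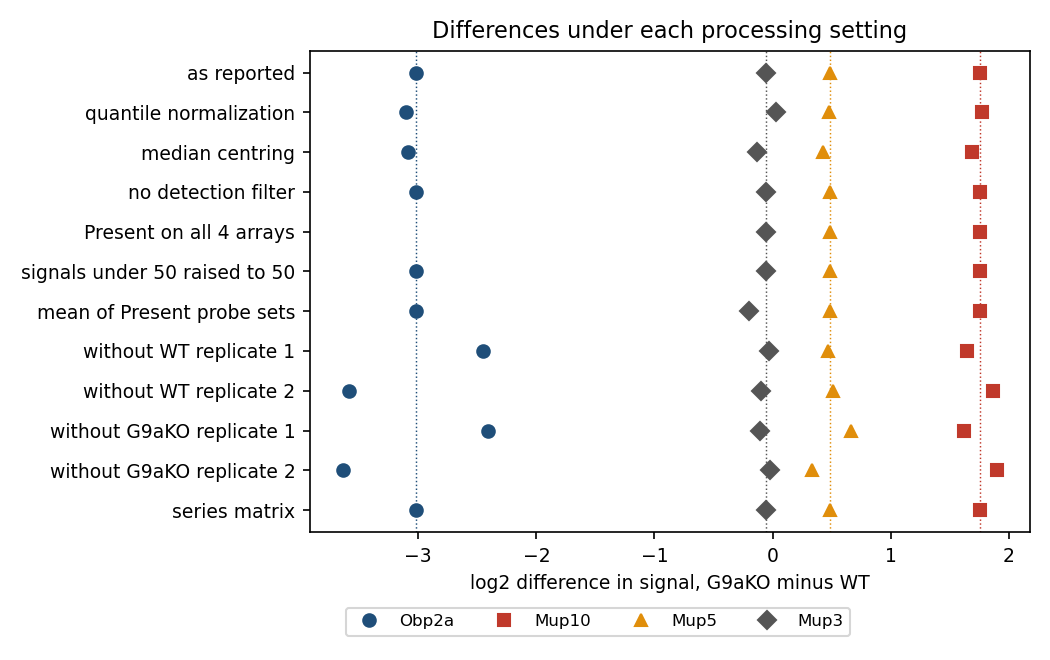
Log2 difference in signal, G9aKO minus WT (horizontal), of Obp2a, Mup10, Mup5 and Mup3 under each processing setting (rows); dotted lines mark the reported values. Obp2a stays between -3.64 and -2.41 and Mup10 between 1.62 and 1.90, whereas Mup3 lies between -0.20 and 0.03 and is above 0 after quantile normalization only.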

How the data were processed

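RNA of non-tumorous liver of 2 WT and 2 G9aKO mice was hybridised to 1 array each, and samples were grouped by the genotype in the labels. MAS5, which the submitters' processing notes name without a version, gave the values. What the authors deposited is a linear intensity per probe set. The authors' software also gave each probe set a call and a detection p-value. The deposited series matrix holds the same intensity values, with a largest relative difference of 5e-06. The trimmed mean, with 2% left out at each end, was 500.0 on every array, so no further scaling was applied.

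Of 45101 probe sets, 64 controls were left out, 34945 named 1 gene, 932 named several and 9160 had no entry in the annotation used here. Symbols were checked against RefSeq (GRCm38.p6) through Entrez identifiers for 34741 probe sets, and 0 changed. Probe sets without an entry were not used, so Mup transcripts they may measure are not reported. Log2 signals of 10350 genes were compared with limma 3.58.1 in R 4.3.3 (lmFit, then eBayes with trend, 2 residual and 4.02 prior degrees of freedom, no pseudocount). Each gene was taken at its brightest probe set by mean log2 signal, among those naming 1 gene and Present on at least 2 arrays. The Benjamini-Hochberg threshold was 0.05. The code was tested on simulated data.

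The genes, lists and promoter motifs were chosen with earlier results of these data known, and TATAA replaced a longer TATA motif after the windows had been read. Every probe set of the listed genes is named. From each gene list, called genes are named, at most 4, and a list without calls has its 3 lowest p-values named. Obp2a and Mup10 have their 3 nearest genes named. Ghr, Jak2, Stat5b, Zhx2, Socs2, Igfals, Thrb, Elovl3, Hsd3b5, Rbp4, Alb, Apoa1, Afp, Gpc3, Golm1, Krt7, Epcam, Sox9, Pecam1, Cdh5, Lyve1 and the named chromosome neighbours were added after their values were seen. The neighbour and promoter comparisons were also chosen after seeing the data. Promoter windows are those of the RefSeq table, aligned globally with Biopython 1.88. Alternatives were quantile normalization, median centring, other detection filters, a floor of 50, no trend, averaged probe sets, the methods' t-test and leaving out each array. The sources used here name no batches. An exact two-sided permutation test of 2 against 2 arrays cannot go below p = 0.33, and so few arrays limit the precision. Replicate numbers follow accession order and pair no arrays. Each array is 1 mouse per the methods.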

Additional observations from a re-analysis of the deposited data

How the results depend on the processing

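Obp2a, Mup10 and Mup5 have 1 probe set each, so other detection filters, averaged probe sets and the series matrix returned the reported difference by construction, as did the floor of 50, which lies below their signals. Since their groups do not overlap, leaving out 1 array could not turn their direction. After quantile normalization and median centring the differences were -3.10 and -3.09 for Obp2a, 1.77 and 1.69 for Mup10, and 0.48 and 0.43 for Mup5. Obp2a was not Present on all 4 arrays and had no value under that filter. The difference of Mup3 was 0.03 after quantile normalization, -0.13 after median centring, -0.20 as the mean of its probe sets, and -0.11 to -0.02 with 1 array left out. Mup10 was the listed gene called higher, and this count was 0 with signals under 50 raised to 50, 0 without a mean-variance trend, and 0 to 1 with 1 array left out. The count called lower was 0 to 1 with 1 array left out. Over all genes, 33 were called higher and 7 lower. These counts were 11 and 4 without a detection filter, 3 and 0 with the floor of 50, 0 and 0 without the trend (645 and 318 at an unadjusted p under 0.05) and 0 and 0 by the methods' t-test once adjusted by Benjamini-Hochberg (449 and 406 at an unadjusted p under 0.05). With all 4 arrays Present, 19 were called higher. With 1 array left out, 8 to 54 were called higher and 0 to 17 lower. Of the female-biased genes, 2 were called higher. That count was 1 after quantile normalization, without a detection filter or with averaged probe sets, 0 with Present on all arrays, the floor or no trend, and 0 to 1 with 1 array left out. Of the male-biased genes, 0 to 1 were called higher with 1 array left out. Where calls changed, the cause was not tested. The use of probe sets naming several Mup genes was not run, since 0 probe sets of the annotation used here do. No paired analysis was possible because the labels give no replicate numbers that the genotypes share. Signals near 170 to 181, the 95% quantile of Absent probe sets, limit what can be said of Obp2a in G9aKO liver.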
